A study of Mus musculus with 50 samples.

Results

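The immunoglobulin variable segments described here were the genes whose symbol begins with Ighv, the variable segments of the heavy chain, or Igkv, those of the kappa light chain, and whose counts summed to at least 500 over the 50 libraries of the series. This rule kept 116 of the 343 Ighv and Igkv symbols in a table of 56691 genes, 43 of 183 Ighv and 73 of 160 Igkv. The libraries were made from poly(A) RNA of colon (distal colon, according to the series text) of 50 BALB/c mice, labelled BALBC and all in 1 batch, with 1 library per mouse and 10 mice per group. Besides the sham group there were 4 TNBS groups, 1 on vehicle and the others on A1007 at 10, 30 or 90 mpk, a unit copied from the labels. TNBS is a hapten that provokes colitis when it reaches the colon wall, and A1007, per the series text, activates the aryl hydrocarbon receptor. The sources used here do not give age, sex or time after TNBS. The study asked what the agonist changes in TNBS colitis, and for the segments that question became whether their amount, their evenness or the leading segments differed between the groups.

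An antibody chain begins as a gene in which a developing B cell has joined 1 variable (V) segment to smaller segments beside a constant gene. The heavy chain uses an Ighv segment and the kappa light chain an Igkv segment. Since all descendants of a B cell inherit its joined gene, an expanded clone raises the reads of the segments it uses. In the normal colon most antibody RNA comes from plasma cells of the lamina propria that secrete IgA, whose heavy chain is encoded by Igha. In bulk tissue, more cells and more RNA per cell cannot be told apart, and a segment with many reads may be used by 1 clone or by many.

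Counts were assigned to segments of the GRCm39 reference, which is the genome of C57BL/6 mice, whereas BALB/c mice carry another heavy-chain haplotype. A segment name below is therefore the name of the reference segment that received the reads. The effect of this difference was not tested. The Ighv members lay between 113542124 and 115612007 on chromosome 12 and the Igkv members between 67532481 and 70681161 on chromosome 6 (GRCm39). Their transcripts in GENCODE M21, an annotation of the same strain on GRCm38, were matched by Ensembl identifier for all 116 members. The nearest other segment of the locus was 94.8% identical at the median for Ighv (range 79.8% to 98.9%) and 94.9% for Igkv (range 73.4% to 98.7%). It was at least 95% identical for 20 Ighv and 36 Igkv members, so the counts of such segments are uncertain, since near copies can share reads.

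The sequences of the segments with the most counts show how far near copies can be told apart. Each run is the last 240 bases of the annotated V exon, 5′ to 3′, taken from GENCODE M21 (GRCm38). Capitals mark bases that differ from the first sequence of each set or, as at the end of Ighv7-1, have no counterpart in it. Ighv10-1 (chromosome 12, 114442625 to 114443071, minus strand, GRCm39) held 26023 counts, the most of any Ighv segment, and its nearest copy Ighv10-3 held 221 counts, which is under the member minimum.
Ighv10-1: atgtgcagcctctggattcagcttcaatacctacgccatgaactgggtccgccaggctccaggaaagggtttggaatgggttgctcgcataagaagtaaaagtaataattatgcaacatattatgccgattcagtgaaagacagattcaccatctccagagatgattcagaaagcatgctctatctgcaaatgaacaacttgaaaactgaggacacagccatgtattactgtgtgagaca
Ighv10-3: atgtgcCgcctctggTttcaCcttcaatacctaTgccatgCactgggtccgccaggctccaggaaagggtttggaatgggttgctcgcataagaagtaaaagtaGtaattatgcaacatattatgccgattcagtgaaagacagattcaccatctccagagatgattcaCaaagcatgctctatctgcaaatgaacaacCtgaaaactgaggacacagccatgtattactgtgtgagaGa

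Over 359 aligned bases the pair differed at 12, and the printed part of Ighv10-3 carries 9 capitals. Ighv7-3 (114116800 to 114117264) with 13885 counts and Ighv7-1 (113860028 to 113860566) with 11984 counts followed Ighv10-1, and are 88.9% identical to each other over 361 aligned bases.
Ighv7-3: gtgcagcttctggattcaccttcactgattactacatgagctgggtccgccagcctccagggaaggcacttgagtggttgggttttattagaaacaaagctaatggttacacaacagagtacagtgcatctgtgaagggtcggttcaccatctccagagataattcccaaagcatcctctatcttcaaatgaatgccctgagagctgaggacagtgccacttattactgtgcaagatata
Ighv7-1: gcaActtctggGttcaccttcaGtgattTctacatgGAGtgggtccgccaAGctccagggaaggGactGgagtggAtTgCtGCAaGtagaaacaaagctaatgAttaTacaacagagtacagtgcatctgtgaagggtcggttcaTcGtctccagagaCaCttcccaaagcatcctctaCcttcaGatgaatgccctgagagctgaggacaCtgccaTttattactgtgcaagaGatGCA

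Among kappa segments the 3 with the most counts were all of the Igkv1 family. Igkv1-117 (chromosome 6, 68098030 to 68098811, plus strand) held 38483 counts, Igkv1-135 (67586697 to 67587492) 23076 and Igkv1-110 (68247469 to 68248251) 22399.
Igkv1-117: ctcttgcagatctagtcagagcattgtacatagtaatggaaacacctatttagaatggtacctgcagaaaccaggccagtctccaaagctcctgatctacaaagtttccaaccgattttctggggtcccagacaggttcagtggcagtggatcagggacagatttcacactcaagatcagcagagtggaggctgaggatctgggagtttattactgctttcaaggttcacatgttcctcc
Igkv1-110: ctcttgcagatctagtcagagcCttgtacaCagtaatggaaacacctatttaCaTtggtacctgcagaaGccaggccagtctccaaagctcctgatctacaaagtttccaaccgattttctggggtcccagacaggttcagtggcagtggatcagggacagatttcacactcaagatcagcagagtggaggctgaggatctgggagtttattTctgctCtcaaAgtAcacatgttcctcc
Igkv1-135: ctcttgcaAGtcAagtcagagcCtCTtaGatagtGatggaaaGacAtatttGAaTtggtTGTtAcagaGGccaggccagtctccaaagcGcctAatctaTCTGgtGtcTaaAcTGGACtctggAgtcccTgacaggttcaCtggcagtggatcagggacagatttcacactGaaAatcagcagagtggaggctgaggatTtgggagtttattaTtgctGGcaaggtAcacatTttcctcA

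Igkv1-110 is 97.5% identical to Igkv1-117, with 9 capitals in the printed part, and Igkv1-135 is 80.5% identical to it, with 45. The capitals of Igkv1-110 lie in a group near the start of the run and another at its end. Reads from the stretch between these groups carry no letter that tells Igkv1-110 from Igkv1-117.

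The member counts behind all shares below reached 6681 Ighv and 17157 Igkv counts per library and were lowest in 90 mpk replicate 6, whose Igkv counts numbered 822, in libraries of 14373337 to 20446967 counts in all. The 43 Ighv members held 93.6% of the counts of all Ighv symbols, and the 73 Igkv members 98.8% of those of all Igkv symbols. Just under the minimum of 500 were Ighv1-73 with 499 counts, Ighv1-63 with 497 and Ighv1-82 with 449, and just over it Ighv8-8 with 548, Ighv5-9 with 556 and Igkv4-90 with 573. Vehicle replicate 6 stood apart in the series through pancreatic acinar genes. The 8 listed ones summed to 46070 CPM there (counts scaled to a common library total), against 1.03 to 8.61 CPM in sham libraries. The highest sums at 10, 30 and 90 mpk, 608, 2709 and 386 CPM, were also above the sham range. Colon epithelium markers (Epcam, Vil1, Cdh1, Slc26a3, Muc2) summed to between 8317 and 21720 CPM in all 50 libraries and were thus present in each.

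Reads were spread unevenly over the members. Ighv10-1 took 18.6% of all Ighv member counts, Ighv7-3 9.91%, Ighv7-1 8.55%, Ighv6-6 6.15%, Ighv3-6 5.91% and Ighv2-9 5.30%. These 6 segments together made up at least 50% of the Ighv counts, and for Igkv 12 segments were needed. Igkv1-117 took 10.6% of Igkv member counts, Igkv1-135 6.38%, Igkv1-110 6.19%, Igkv8-27 5.47%, Igkv10-96 5.11% and Igkv8-30 3.11%.

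By family, the Ighv1 segments, with 92 symbols the largest family, had 12 members and 12.3% of Ighv counts. The Ighv10 family with 1 member had 18.6%, and the Ighv7 family with 2 members had 18.5%. For kappa, 5 Igkv1 members held 23.96% of counts and 18 Igkv4 members 16.5%.

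Position along the loci differed between heavy and kappa chains. When the Ighv symbols were put in order of distance from Ighm, the constant gene of IgM, the nearest of 3 equal parts (61 symbols, 152.5 to 893.8 kb away) held 23 members and 54.6% of counts. The middle part held 15 members and 42.8%, and the farthest part 5 members and 2.61%. Across libraries the farthest part held between 0.414% and 7.03%. For kappa, ordered by distance from Igkc, the nearest, middle and farthest parts held 37.2%, 17.6% and 45.1% of counts. Igkv1-117, Igkv1-135 and Igkv1-110 all lie in the farthest kappa part.

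Of the 116 members, 4 are annotated as pseudogenes in the C57BL/6 reference. Ighv4-2 held 5946 counts, was present in all 50 libraries and was the leading Ighv segment in 4 of them, with 11.9% to 17.6% of Ighv counts. Ighv1-14 held 2690 counts, Ighv3-2 held 1062 and Ighv1-33 held 676. Ighv1-33 was concentrated in A1007 10 mpk replicate 6, which supplied 63.8% of its counts. It was the only member with more than 50% of its counts in 1 library. The nearest copy of Ighv4-2 is Ighv4-1, 96.4% identical and annotated as a functional gene. Whether the reads come from a functional BALB/c relative of these segments was not tested.

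The summed amount of V segments varied widely between mice of each group. The sum over all members was 155 to 759.5 CPM in the 10 sham libraries (median 597) and 232 to 1260 CPM in the 10 vehicle libraries (median 594). It was 287 to 1082 CPM at 10 mpk (median 843), 267 to 605 CPM at 30 mpk (median 414) and 59.8 to 877 CPM at 90 mpk (median 548.5). All 5 ranges overlapped. The low value at 90 mpk was replicate 6, and the next lowest library of all was sham replicate 3. No test was run on these sums, since the members were chosen on the same libraries.

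**Figure D1:**
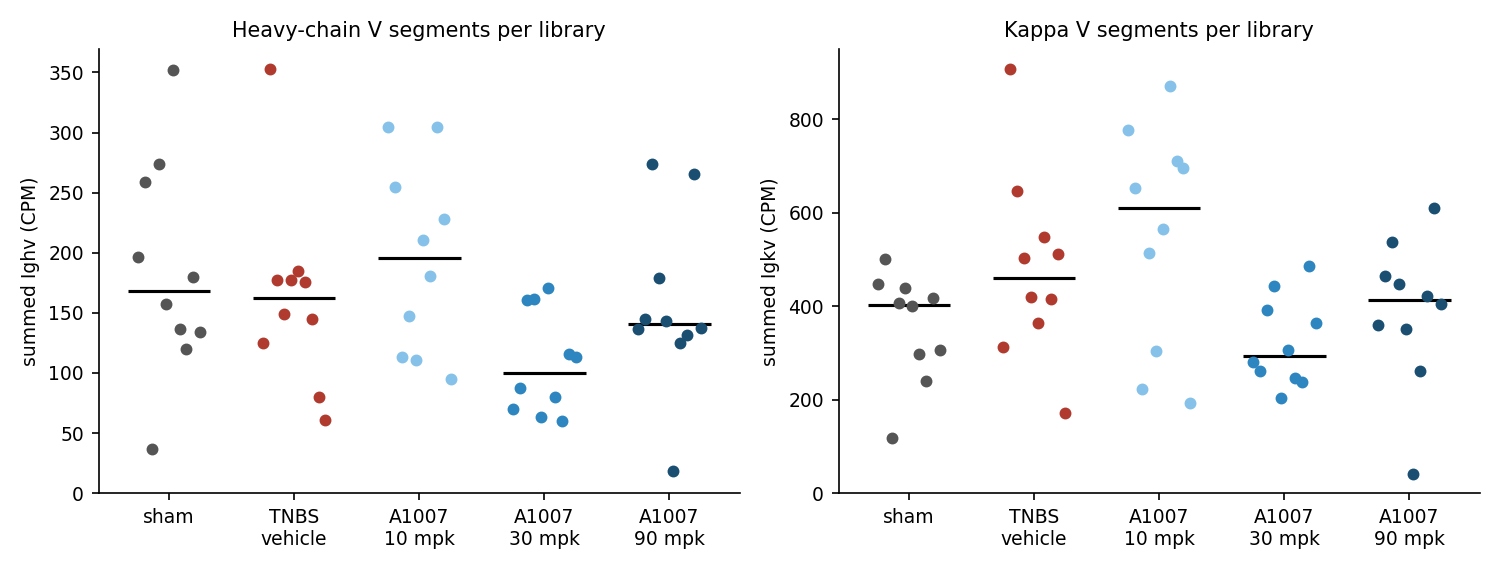
Summed CPM of the 43 Ighv members (left) and the 73 Igkv members (right) per library, with 10 mice per group and black lines at the group medians. The Ighv medians were 169, 162, 196, 100.3 and 141 CPM from sham to 90 mpk, and all ranges overlap.

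The 30 mpk group had the lowest medians of both loci. Its Ighv sum ran from 60.4 to 170 CPM, with a median of 100.3 CPM, against 61.0 to 353 CPM and 162 CPM in vehicle mice. Its Igkv sum ran from 203 to 487 CPM, with a median of 294 CPM, against 171 to 907 CPM and 461 CPM. For the V total, 2 of the 10 libraries at 30 mpk were above the vehicle median, and none was below the lowest vehicle library. Kappa counts outnumbered heavy counts in every library, by a median of 2.60-fold, from 1.14-fold in sham replicate 6 to 6.42-fold in vehicle replicate 9.

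Constant genes, which every antibody RNA carries, gave the setting for these sums. The median of Igha, the IgA heavy chain, was 1047 CPM in sham, 1065 CPM in vehicle, and 1648, 1237 and 1236 CPM at 10, 30 and 90 mpk. Igha supplied a median of 86.1% of all heavy constant counts over the 50 libraries, and the lowest share, 49.97%, was in sham replicate 3. Lambda variable segments (Iglv1, Iglv2, Iglv3), the alternative light chain, made up a median of 11.5% of light-chain V counts, with a highest value of 34.98%.

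The leading segment differed from mouse to mouse within every group. Of the 43 Ighv members, 10 led the Ighv counts of at least 1 library. Ighv10-1 led in 18 libraries, Ighv7-3 in 10, Ighv7-1 in 6, Ighv4-2 in 4, Ighv2-9, Ighv3-6 and Ighv6-6 in 3 each, and Ighv1-26, Ighv13-2 and Ighv5-17 in 1 each. Each group had 4 to 7 different leading Ighv segments among its 10 mice. Ighv10-1 led in 5 sham, 2 vehicle, 5, 4 and 2 libraries at 10, 30 and 90 mpk.

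A single Ighv segment held at least 20% of Ighv counts in 25 of the 50 libraries: 7 sham, 2 vehicle, and 4, 6 and 6 at 10, 30 and 90 mpk. The highest share was that of Ighv10-1 in sham replicate 6, at 63.5% of 6681 counts (exact Clopper-Pearson 95% interval 62.3% to 64.6%). This and all such intervals cover counting error only, since reads without molecular identifiers are not independent molecules. Ighv10-1 also held 47.1% in 90 mpk replicate 9 and 46.8% in 30 mpk replicate 6, and as little as 1.42% in another library. Over all 50 libraries its median share was 10.9%.

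Other heavy segments reached comparable shares in single mice. Ighv7-3 held 40.4% in 10 mpk replicate 10 and 37.1% in 30 mpk replicate 3. Ighv7-1 held 32.1% in 30 mpk replicate 9, Ighv3-6 32.1% in 90 mpk replicate 1, Ighv6-6 32.0% in vehicle replicate 6 and Ighv2-9 22.1% in sham replicate 10. The median shares of these segments over the 50 libraries were 6.92% for Ighv7-3, 7.47% for Ighv7-1, 4.78% for Ighv3-6, 4.31% for Ighv6-6 and 3.99% for Ighv2-9.

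**Figure D2:**
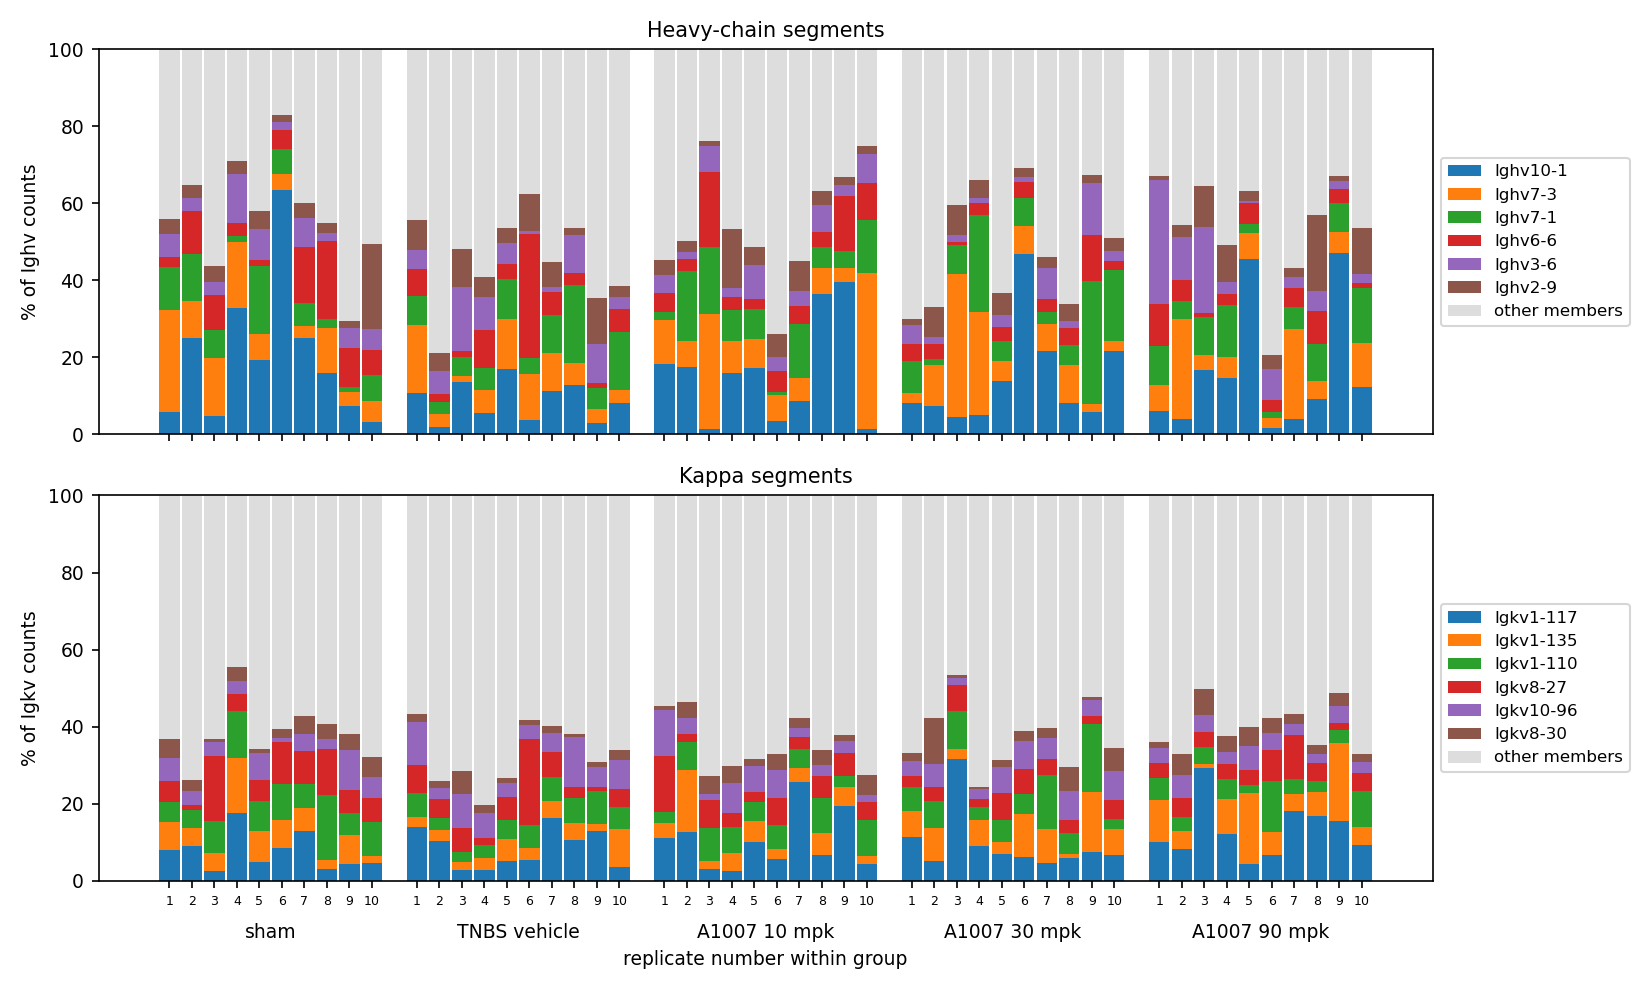
Share of Ighv counts (top) and Igkv counts (bottom) held by the 6 members with the most counts, per library, grouped by treatment with replicate numbers on the x axis and grey for the other members. The composition changes from mouse to mouse within each group, and Ighv10-1 fills 63.5% of the bar of sham replicate 6.

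Kappa counts were led by a single segment less strongly. Among 73 members, 12 led in at least 1 library, with Igkv1-117 in 18 libraries, Igkv1-135 in 7, Igkv1-110 in 6, and Igkv10-96 and Igkv8-27 in 5 each. A share of at least 20% was reached in 5 libraries. Igkv1-117 held 31.5% in 30 mpk replicate 3 (exact Clopper-Pearson 95% interval 30.5% to 32.6%), 29.2% in 90 mpk replicate 3 and 25.5% in 10 mpk replicate 7. Igkv8-27 held 22.3% in vehicle replicate 6, and Igkv1-135 held 20.3% in 90 mpk replicate 9.

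Heavy and kappa dominance did not always fall in the same mouse. Sham replicate 6, with 63.5% Ighv10-1, had a leading kappa segment, Igkv8-27, at only 10.8%. Its light chains included a lambda share of 31.3%, the highest of the sham group. In 30 mpk replicate 6, with 46.8% Ighv10-1, the leading kappa segment held 11.4%, and the lambda share was 34.4%, the highest of that group. Vehicle replicate 6 led in both loci, with Ighv6-6 at 32.0% and Igkv8-27 at 22.3%, and also carried the highest lambda share of its group, 18.4%. Sham replicate 4, with 32.9% Ighv10-1, had a lambda share of 25.7%, and 30 mpk replicate 3, with 37.1% Ighv7-3, one of 25.4%. Not every library with a dominant Ighv segment had a high lambda share. In 10 mpk replicate 9, with 39.5% Ighv10-1, the lambda share was 4.0%, the lowest of all libraries. In 90 mpk replicate 9, with 47.1% Ighv10-1, it was 15.6%. The highest lambda share of all, 34.98%, was in 10 mpk replicate 6, whose leading Ighv share of 12.7% was the lowest of its group.

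Evenness was measured by the effective number of segments, the exponential of the Shannon entropy of the shares, which equals the number of members if all are used alike. For Ighv it ran from 5.58 to 21.1 in sham (median 17.7), 13.8 to 26.5 in vehicle (median 21.3), 9.94 to 27.2 at 10 mpk (median 19.6), 9.76 to 28.8 at 30 mpk (median 19.6) and 11.2 to 21.0 at 90 mpk (median 17.1). Of 10 vehicle libraries, 5 were above the highest sham library. None of the 10 libraries at 90 mpk was above the vehicle median. The ranges of sham and of 90 mpk both overlapped that of vehicle.

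**Figure D3:**
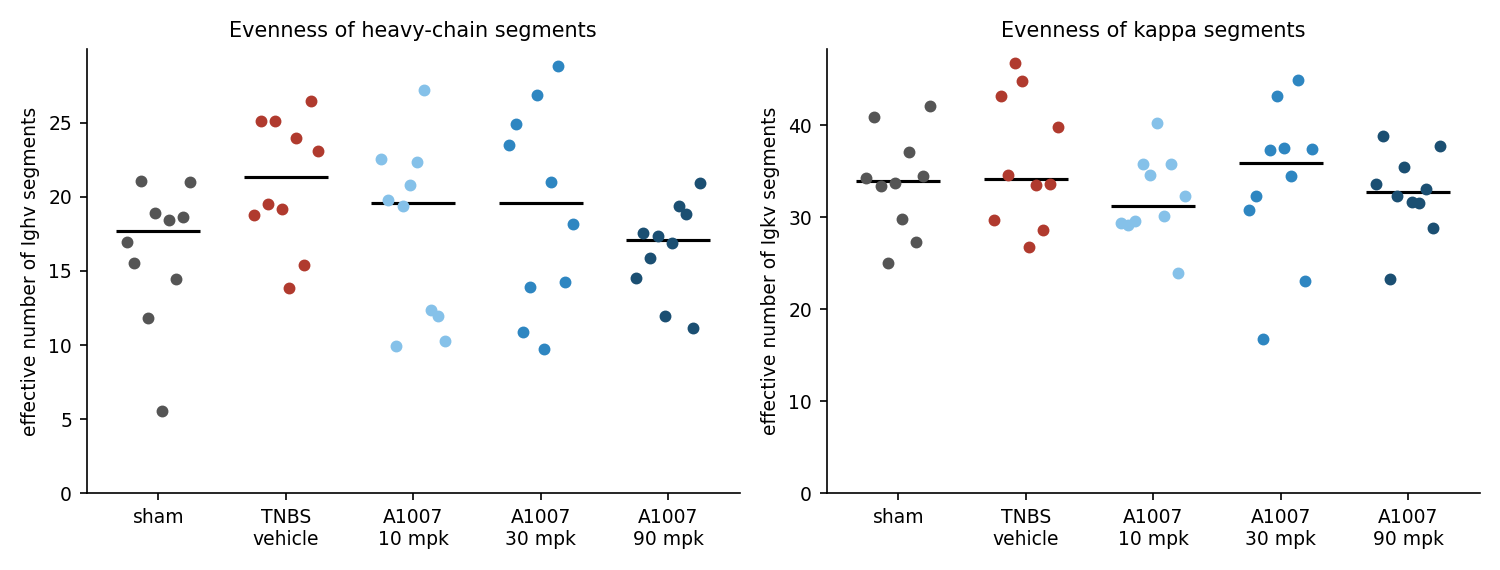
Effective number of Ighv (left) and Igkv (right) segments per library, with 10 mice per group and black lines at the group medians. The lowest Ighv value, 5.58, is sham replicate 6, and the lowest Igkv value, 16.8, is 30 mpk replicate 3.

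For Igkv the medians were closer together, at 34.0, 34.1, 31.2, 35.9 and 32.7 from sham to 90 mpk. The lowest was 16.8 in 30 mpk replicate 3 and the highest 46.8 in vehicle replicate 4. After every library had been thinned to the locus total of the smallest library, the Ighv medians were 16.1, 19.4, 18.9, 19.2 and 16.6 in the same order. The 5 leading segments together held a median of 56.8% of Ighv counts in sham, 48.7% in vehicle and 54.4%, 53.1% and 61.8% at 10, 30 and 90 mpk.

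Segment use in pairs of mice of the same group lay about as far apart as in pairs of different groups. The Bray-Curtis distance between share profiles, which is 0 for identical and 1 for disjoint profiles, had a median of 0.461 over 225 pairs within groups and 0.458 over 1000 pairs between groups for Ighv. For Igkv the medians were 0.420 and 0.426. Pairs share libraries, so these distances are a description with no test.

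The amount of kappa V relative to kappa constant RNA had its highest group median in sham mice and its lowest at 30 mpk. The ratio of summed Igkv FPKM to Igkc FPKM (fragments adjusted for library size and exon length, which puts genes of different length on 1 scale) was 0.773 to 0.937 in sham mice, with a median of 0.850. It was 0.412 to 0.911 in vehicle (median 0.782), 0.356 to 0.962 at 10 mpk (median 0.722), 0.407 to 0.795 at 30 mpk (median 0.554) and 0.611 to 0.776 at 90 mpk (median 0.711). The lowest sham library lay above 9 of 10 libraries at 30 mpk, 9 of 10 at 90 mpk, 7 of 10 at 10 mpk and 4 of 10 vehicle libraries. The 90 mpk group was narrow, with an SD of 0.0491, and none of its libraries was above the vehicle median.

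**Figure D4:**
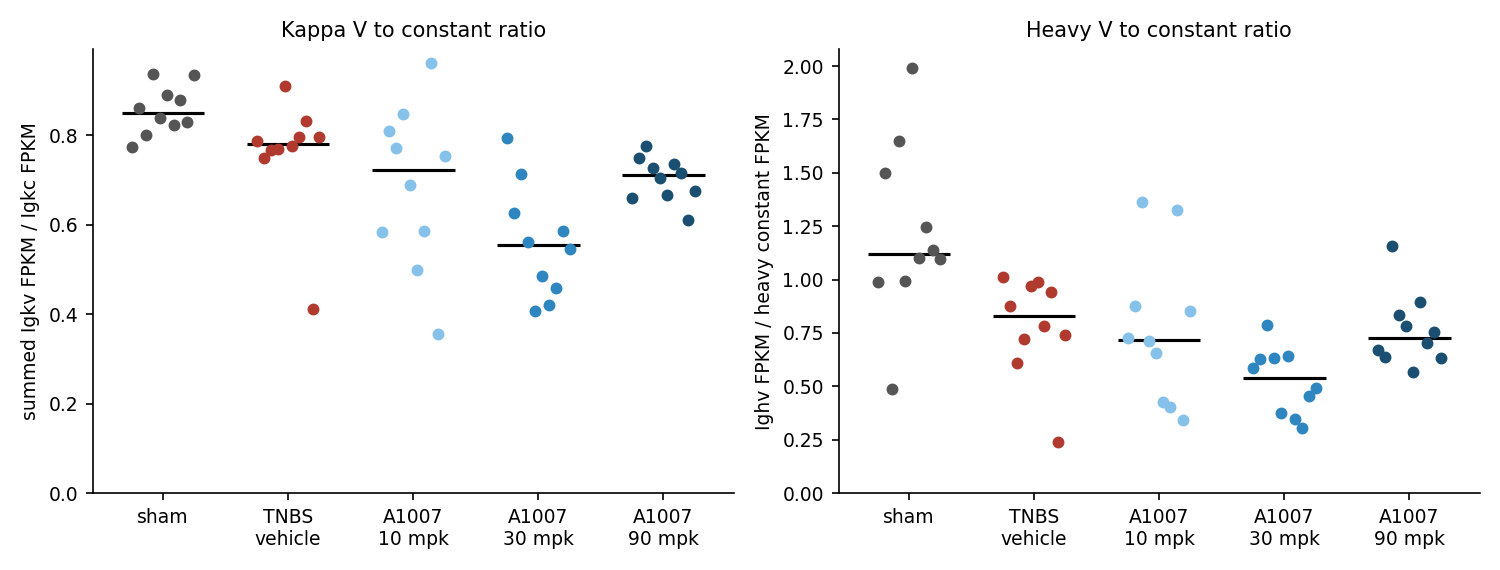
Ratio of summed Igkv FPKM to Igkc FPKM (left) and of summed Ighv FPKM to summed heavy constant FPKM (right) per library, with 10 mice per group and black lines at the group medians. The sham medians, 0.850 and 1.12, are the highest of the 5 groups, and the 30 mpk medians, 0.554 and 0.539, the lowest.

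The heavy chain ranked the same groups highest and lowest. Summed Ighv FPKM over that of the heavy constant genes had a median of 1.12 in sham (0.489 to 1.99), 0.830 in vehicle (0.240 to 1.01), 0.718 at 10 mpk, 0.539 at 30 mpk (0.305 to 0.787) and 0.729 at 90 mpk. For lambda, the ratio of V to constant counts had medians of 0.866, 0.849, 0.625, 0.469 and 0.662 from sham to 90 mpk. No library of 30 mpk was above the vehicle median in the heavy ratio. These ratios were chosen after their values were seen and carry no test.

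Markers of B cells before they secrete antibody formed a list of 12 genes, each tested singly. At 30 mpk against vehicle 5 of them rose with edgeR, where 13.5% of all genes tested were higher. Among them Cd79a and Cd79b, which pass on signals from antibody at the cell surface, rose by 1.08 and 1.12 on the log2 scale (edgeR adjusted p = 0.0165 and 0.0140), and Fcer2a and Fcrla by 1.27 and 1.22 (0.0232 and 0.0106). None passed in the other 3 comparisons with edgeR, where 0, 3 and 4 had an unadjusted p under 0.05 in vehicle against sham and at 10 and 90 mpk, and DESeq2 called 0, 0 and 1. The summed level of the list was 90.0 to 461 CPM in sham, 46.9 to 341 CPM in vehicle, 20.2 to 643 CPM at 10 mpk, 120 to 528.5 CPM at 30 mpk and 155 to 542 CPM at 90 mpk, and all of these ranges overlapped. Their part in the ratios was not tested. Igkc itself, which encodes the kappa constant region, differed between vehicle and 30 mpk by -0.19 on the log2 scale (SE 0.34, adjusted p = 0.69), and Jchain, which links IgA into dimers, by 0.04 (SE 0.32, adjusted p = 0.94).

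Single segments were tested with edgeR's quasi-likelihood test over 17928 genes, and a segment was called where its p, adjusted by the Benjamini-Hochberg method, was under 0.05. The filter on low counts passed 114 of the 116 members, all except Ighv1-33 and Igkv8-34. The typical standard error of a segment's log2 fold change was large. Its median over members was 0.58 to 0.61 in the 4 comparisons, against 0.13 to 0.14 over all genes tested. Where a library had no count, a level of up to 0.147 to 0.209 CPM is allowed (3 counts). The 3 dose comparisons share the vehicle libraries.

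In vehicle against sham mice, 11 of 114 tested members were higher (9.65%) and 2 were lower (1.75%). Over all genes tested, 18.2% were higher and 13.5% lower, so the share of segments called was below that of all genes in both directions. The median log2 fold change of the members was 0.35, and 0.02 over all genes. Igkv5-48 had the smallest p. It had 0.589 to 2.94 CPM in sham (median 1.73) and 1.44 to 32.6 CPM in vehicle (median 4.99), with 8 of 10 vehicle libraries above the highest sham library (log2 fold change 2.27, SE 0.49, adjusted p = 0.00153).

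Less abundant segments followed. Igkv14-126 had a median of 0.304 CPM in sham and 1.08 CPM in vehicle, with 6 vehicle libraries above the highest sham library and 1 library of each group without a count (log2 fold change 2.21, SE 0.58, adjusted p = 0.0066). Ighv8-8 had medians of 0.151 and 0.515 CPM, with 2 sham libraries without a count (2.34, SE 0.70, adjusted p = 0.0144). Without vehicle replicate 2, where Ighv8-8 reached 4.49 CPM, the call of Ighv8-8 was lost. The other 8 were Igkv3-5, Igkv4-70, Igkv16-104, Igkv4-86, Igkv4-59, Ighv3-5, Igkv13-85 and Ighv1-37, and each lost its call in at least 1 of the 20 fits that left out 1 library. Igkv3-5 lost it without vehicle replicate 1, Igkv4-70 without vehicle replicate 9, and Igkv16-104 without vehicle replicate 4 or 7. Igkv4-86 lost it in 4 fits, with a value of 0.85 in the lowest, and Igkv4-59, Igkv13-85 and Ighv1-37 in 10, 12 and 13. The count of higher segments was 5 without vehicle replicate 2 and 7 without sham replicate 3, sham replicate 8 or vehicle replicate 9.

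Ighv10-1, the leading Ighv segment, was lower in vehicle than in sham mice. It had 1.75 to 223 CPM in sham (median 24.8) and 2.38 to 29.9 CPM in vehicle (median 10.7), and 9 of 10 vehicle libraries were below the sham median (log2 fold change -1.89, SE 0.68, adjusted p = 0.0418). The call was lost in 10 of the 20 fits that each left out 1 library, that without sham replicate 6 among them. Ighv5-2 had 0.0624 to 8.51 CPM in sham and 0.0644 to 0.423 CPM in vehicle, and the medians, 0.351 and 0.235 CPM, were close (-2.68, SE 0.74, adjusted p = 0.0095). Over the fits without 1 library the value of Ighv5-2 ran from -2.83 to -1.81, with the call kept. Leaving out 1 library gave 1 to 3 lower segments in place of 2.

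Genes of other lists changed in the same comparison, where 18.2% of all genes tested were higher and 13.5% lower. The class-switched heavy chains Ighg1, Ighg2b and Ighg3 rose by 2.53, 2.28 and 2.27 and Ighe by 3.32 on the log2 scale. Without 1 library the values ran from 2.12 to 2.88, 1.81 to 2.42, 1.79 to 2.86 and 2.28 to 3.52 for Ighg1, Ighg2b, Ighg3 and Ighe, with each call kept. With the replicate number as a block the call of Ighg2b was lost, and with voom and sample weights those of Ighg2b and Ighe. Ighm rose by 1.23, and Igha differed by 0.47 (SE 0.30, edgeR adjusted p = 0.24). Of the 12 plasma cell genes 6 rose, among them Prdm1, a regulator of plasma cell fate, by 0.70, and Mzb1, a chaperone of antibody folding, by 0.80, a call lost without vehicle replicate 2. Pigr, the receptor that carries IgA across the epithelium, fell by 0.63. Among the 2 tested lambda segments Iglv2 fell by 1.53, a call lost in 14 of the 20 fits that each left out 1 library, and Iglv1 differed by -0.07. Of 7 genes of IgA transport and induction 3 fell and 1 rose: Pigr, Ccl28 by 0.55 and Tnfsf13 by 0.35 fell, and Itgb7 rose by 0.62. The call of Tnfsf13 was lost in 9 of the 20 fits. Of the 5 colon epithelium genes Slc26a3 fell by 1.71 and Vil1 by 0.29.

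Among the 8 germinal centre genes, S1pr2, Basp1 and Bcl6 rose and Rgs13 fell in vehicle mice, beside 18.2% higher and 13.5% lower over all genes. Of 6 genes of lymphoid follicle stroma 4 rose: Cxcl13, the chemokine that draws B cells into follicles, by 1.98, Ccl19 by 1.57, Tnfsf11 by 1.46 and Madcam1 by 0.90. The call of Ccl19 was lost without vehicle replicate 5, and its value fell to 0.89 in the lowest fit. None of the 10 T cell genes passed the edgeR test, where 3 had an unadjusted p under 0.05 and DESeq2 called 0. All 8 pancreatic acinar genes rose, and their highest sum was in vehicle replicate 6. Their group medians were 1.52 CPM in sham and 3.54 CPM in vehicle. Of these genes 8 were called lower at 90 mpk and 2 each at 10 and 30 mpk, and each of these calls was lost without vehicle replicate 6. With voom and sample weights 2 of them at 10 mpk, 2 at 30 mpk and 4 at 90 mpk had the opposite sign.

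At 10 mpk against vehicle, 0 of 114 members were higher and 1 was lower (0.877%), beside 2.83% higher and 2.91% lower over all genes. At an unadjusted p under 0.05 the edgeR test gave 6 higher and 9 lower, and DESeq2 called 1 higher. The lower segment was Igkv13-84, with 0.0542 to 0.847 CPM at 10 mpk (median 0.437) and up to 7.53 CPM in vehicle (median 0.916, 1 library without a count). All 10 libraries at 10 mpk were below the vehicle median (log2 fold change -2.28, SE 0.71, adjusted p = 0.0496). The call was lost in 13 of the 20 fits that each left out 1 library.

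At 30 mpk against vehicle, 18 of 114 members were lower (15.8%) and 0 were higher, beside 17.9% lower and 13.5% higher over all genes. The share of lower calls was thus near that of all genes. No member had an unadjusted p under 0.05 in the higher direction with edgeR, and DESeq2 called 0 higher and 21 lower. The median log2 fold change over the members was -0.64, against -0.02 over all genes, and 86 of 114 members had a negative value. The count of lower segments was 11 without vehicle replicate 2 or 30 mpk replicate 5.

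Ighv3-5 had the smallest p among segments at 30 mpk. It had 0.237 to 16.4 CPM in vehicle (median 7.86) and 0.109 to 1.72 CPM at 30 mpk (median 0.760), with all 10 libraries below the vehicle median (log2 fold change -3.01, SE 0.66, adjusted p = 0.000849). The call held when each library in turn was left out. Igkv12-46 had 0.382 to 37.1 CPM in vehicle and 0.545 to 3.10 CPM at 30 mpk, with medians of 3.29 and 1.34 CPM (-2.37, SE 0.68, adjusted p = 0.0078). Without vehicle replicate 9, the library at 37.1 CPM, its call was lost.

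The call of Igkv4-86 rested on 1 vehicle mouse. It had 82.9 CPM in vehicle replicate 2, which supplied 39.4% of its counts in all 50 libraries, and medians of 2.33 CPM in vehicle and 1.38 CPM at 30 mpk (log2 fold change -2.94, SE 0.83, adjusted p = 0.0073). Without that library the call was lost, and the value was -1.20. Of the most abundant segments Ighv6-6 was among the 18, at -1.44 (SE 0.55, adjusted p = 0.0436), with medians of 7.05 CPM in vehicle and 2.90 CPM at 30 mpk. Its call was lost in 11 of the 20 fits that each left out 1 library, that without vehicle replicate 6, where Ighv6-6 reached 59.3 CPM, among them.

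Plasma cell genes at 30 mpk fell in 2 of 12 cases, a share near the 17.9% of all genes called lower: Prdm1 by 0.69 and Xbp1 by 0.19 on the log2 scale. The Xbp1 call was lost without vehicle replicate 6 or 9 or 30 mpk replicate 7. Ighe fell by 2.81, a call lost without vehicle replicate 5, with values from -3.12 to -1.77 over the fits, and the other 11 tested constant and joining genes did not pass. Over all genes 13.5% were called higher at 30 mpk. Of the follicle stroma genes Cxcl13 and Tnfsf11 fell, while Glycam1, Madcam1 and Ccl21a rose, calls lost in 12, 11 and 15 of the 20 fits. Of 8 germinal centre genes S1pr2, Fas and Basp1 fell and Rgs13 rose, and the S1pr2 call was lost in 5 fits. Tnfsf13, a survival factor for plasma cells, rose by 0.41, and Itga4, part of a gut-homing integrin, fell by 0.59. At 10 mpk 2.91% of all genes were called lower. There 1 plasma cell gene passed, Xbp1, which fell by 0.24, and 1 follicle stroma gene, Cxcl13, which fell by 1.36. Their calls were lost in 9 and 5 of the 20 fits.

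At 90 mpk against vehicle, 3 of 114 members were lower (2.63%) and 1 was higher (0.877%), beside 11.1% lower and 7.12% higher over all genes. Ighv3-5 was lower here too, with 0.489 to 3.83 CPM (median 0.793) against the same vehicle libraries (log2 fold change -2.49, SE 0.64, adjusted p = 0.0054). Igkv8-21 had medians of 4.95 CPM in vehicle and 1.85 CPM at 90 mpk, with 78.7 CPM in vehicle replicate 3 (-2.61, SE 0.73, adjusted p = 0.0107). Its call was lost without that library. The count of lower segments was 7 without vehicle replicate 1 or 10, 6 without vehicle replicate 6 or 8 or 90 mpk replicate 5, and 5 without 90 mpk replicate 9. Igkv5-45 had medians of 1.81 and 0.197 CPM, with 6 of 10 libraries at 90 mpk below the lowest vehicle library and 1 without a count (-2.79, SE 0.78, adjusted p = 0.0109).

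Ighv5-9 was the segment called higher at 90 mpk. It had medians of 0.125 CPM in vehicle, where 2 libraries had no count, and 0.588 CPM at 90 mpk, with 6.93 CPM in replicate 9 (log2 fold change 2.22, SE 0.71, adjusted p = 0.0242). Its call was lost without replicate 5 or replicate 9 of that dose. Among the constant genes Ighg3 fell by 1.69 and Ighe by 2.63 at 90 mpk. The Ighg3 call was lost without vehicle replicate 6 or 9 and the Ighe call without vehicle replicate 5, with Ighe values from -2.86 to -1.60 over the fits. Sdc1, the plasma cell surface marker also made by epithelium, fell by 0.32, and Prdm1 by 0.47. Basp1 and Bcl6 of the germinal centre genes fell and Rgs13 rose, Cxcl13 and Tnfsf11 fell, and Tnfsf13 rose by 0.35. The calls of Bcl6 and Tnfsf13 were lost in 4 and 2 of the 20 fits. No lambda segment passed at any dose with edgeR or DESeq2, and none had an unadjusted p under 0.05.

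Ighv3-5 was the only segment called in 3 of the 4 comparisons. Its median was 1.77 CPM in sham, 7.86 CPM in vehicle, and 2.81, 0.760 and 0.793 CPM at 10, 30 and 90 mpk. Vehicle against sham gave 1.82 (SE 0.66, edgeR adjusted p = 0.0416) with overlapping groups, 5 of 10 vehicle libraries lying above the highest sham library. The vehicle group was split, since 4 of its 10 libraries were below the sham median, 2 of them below the lowest sham library. That call was lost in 13 of the 20 fits that each left out 1 library. Since all comparisons of the doses use the same vehicle libraries, in some of which Ighv3-5 was high, these values are not independent.

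**Figure D5:**
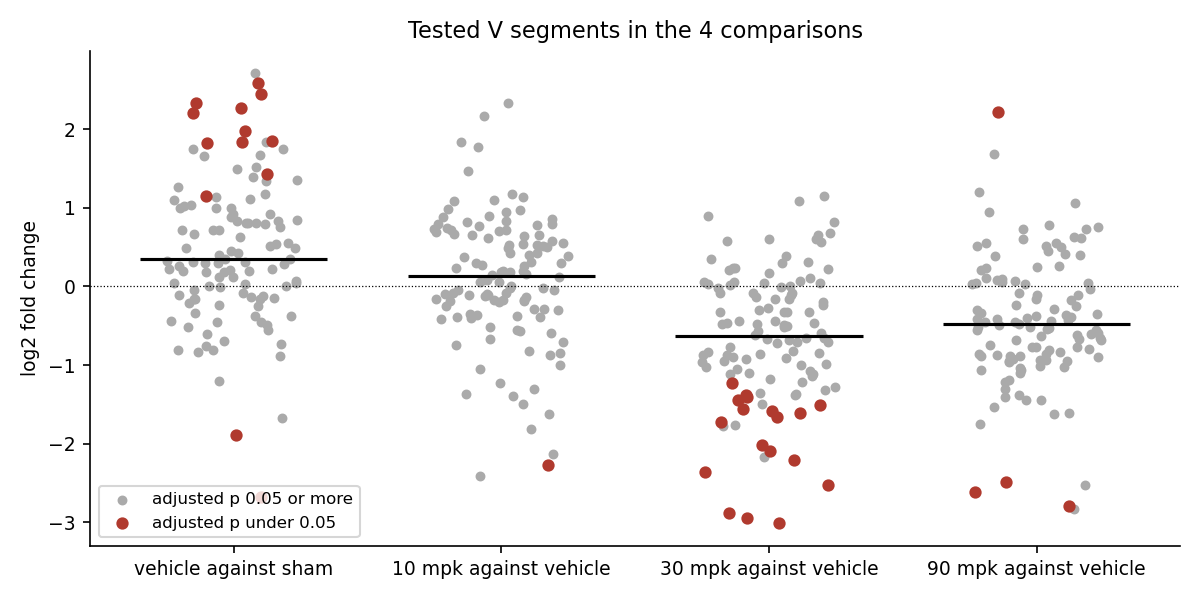
Log2 fold change of the 114 tested members in the 4 comparisons, with red for an adjusted p under 0.05 and black lines at the median. The medians are 0.35, 0.13, -0.64 and -0.48, and the red points number 13, 1, 18 and 4.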

How the data were processed

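Poly(A) RNA of colon was sequenced in 50 mice, and the authors deposited 1 table of raw read counts per gene, with FPKM values, exon lengths, GRCm39 coordinates and symbols. The submitters' processing notes name HISAT2 2.2.1, HTSeq 0.6.1, cutadapt 1.9.1 and DESeq2, with the build GRCm39. What each did, whether counting used strand, and how multi-mapping reads were handled is not given in the sources used here. Deposited FPKM values lay within 1% of those recomputed from counts, exon lengths and library totals for 99.997% of values with at least 500 counts. No value column was left without a sample.

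Library totals were 14373337 to 20446967 counts. Samples were grouped by their titles. Segment shares, CPM, effective numbers and ratios were computed per library in Python 3.11.15 (pandas 2.3.3, numpy 2.4.6, scipy 1.17.1) and are described by lowest, median and highest with no test. Single genes were tested with edgeR 4.0.16 in R 4.3.3 (glmQLFit, robust, and glmQLFTest, TMM scaling, filterByExpr with a count minimum of 10), which left 17928 genes. Vehicle was compared with sham over 20 libraries and each dose with vehicle over the 40 TNBS libraries. P-values were Benjamini-Hochberg adjusted over all genes tested. They judge differences between group means against the spread between mice. The scripts were tested on simulated data. Sequences came from GENCODE M21 transcripts, aligned with Biopython 1.88.

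Named segments were the 6 of each locus with the most counts, those leading a library with at least 20% of locus counts, up to 3 called per direction and comparison with the smallest p, those beside the 500-count minimum, and tested genes of the marker lists. Others were chosen after their values were seen. The segments and lists were chosen with earlier results of these data known. Alternatives were DESeq2 1.42.0, its size factors in edgeR, no filter, the replicate number as a block, limma 3.58.1 voom with sample weights, only the 2 groups compared, other minimums, thinning, and leaving out each library. The values of 1 listed gene are not reported here.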

Additional observations from a re-analysis of the deposited data

Results flagged for a closer look

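A library was singled out where, among the 10 of its group, the highest or lowest value lay farther from its nearest neighbour than Dixon's 95% critical share of the group's range. Of 110 groups of values examined 24 met this. Chance gives about 1 in 20 for normally distributed values, and its rate for CPM and leading shares was not measured. In sham mice, replicate 6 stood out with 63.5% for the leading Ighv segment (next 32.9%) and with 223 CPM of Ighv10-1 (next 89.9 CPM). Sham replicate 4 had 34.3 CPM of Ighv3-6, and sham replicate 10 had 29.7 CPM of Ighv2-9.

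In vehicle mice, replicate 2 had a summed Ighv level of 353 CPM (next 185 CPM). Replicate 6 had a leading Ighv share of 32.0%, 59.3 CPM of Ighv6-6 (next 14.5 CPM) and 81.1 CPM of Igkv8-27, and it was also the library with the acinar genes. Replicate 3 had 37.7 CPM of Igkv8-30. Replicate 9 had 6.42 Igkv counts per Ighv count, a ratio of Igkv to Igkc FPKM of 0.412 (next 0.749) and a ratio of Ighv to heavy constant FPKM of 0.240 (next 0.609).

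At 10 mpk, replicate 2 had 107 CPM of Igkv1-135, and replicate 1 had 113 CPM of Igkv8-27 and 91.9 CPM of Igkv10-96. At 30 mpk, replicate 3 had a leading Igkv share of 31.5% and 124 CPM of Igkv1-117 (next 39.98 CPM). Replicate 6 of that dose had 79.8 CPM of Ighv10-1. Replicate 9 had 13.9 CPM of Ighv6-6, 15.5 CPM of Ighv3-6, 75.9 CPM of Igkv1-135 and 85.7 CPM of Igkv1-110. At 90 mpk, replicate 9 had 125 CPM of Ighv10-1 and 124 CPM of Igkv1-135.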

How the results depend on the processing

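The counts of called segments depended on the tool and the filter, and of the results of called segments under them 84 were no longer past the threshold and 119 kept their side of it. None of these 36 fold changes reversed, but the segments were those called, so their sign says little about stability. In vehicle against sham, 11 higher and 2 lower segments became 4 and 1 with no filter on low counts, 4 and 0 with the replicate block, 2 and 0 with voom and sample weights, and 6 and 1 among segments with at least 2000 counts (a smaller list). At 10 mpk, 0 higher and 1 lower became 1 higher with DESeq2, and 0 lower with the block, with voom, with only the 2 groups compared and at 2000 counts. At 30 mpk, 18 lower became 8 with no filter, 8 with the block and 7 with voom. At 90 mpk, 3 lower became 7 with DESeq2, and 1 higher became 0 with no filter, the block, voom and 2000 counts. With DESeq2 size factors in edgeR, none of the called segments lost its call. Leaving out 1 library gave 5 to 14 higher and 1 to 3 lower segments in vehicle against sham, 0 to 2 and 0 to 1 at 10 mpk, 0 and 11 to 21 at 30 mpk, and 0 to 1 and 2 to 7 at 90 mpk. The causes were not tested.

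The replicate numbers are shared between groups in the labels, but nothing ties them to litters or days. Same-numbered deviations correlated above 0.1 in 1, 6, 5 and 5 of 10 pairs in the 4 comparisons. Their mean correlation was -0.038, 0.11, 0.025 and 0.064, against 0.004, -0.011, -0.003 and -0.007 for other pairs. These values do not settle whether the numbers mark real blocks. The block was not used in the values reported, and its counts are given above. Acinar genes changed sign with voom: Ctrc 0.31 and Pnliprp1 0.57 at 10 mpk, Ctrc 0.37 and Pnliprp1 2.18 at 30 mpk, and Cel 0.30, Cpa1 0.59, Ctrc 0.39 and Pnliprp1 1.61 at 90 mpk.

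The median effective number of Ighv segments was 28.0, 27.1 and 20.7 in vehicle, 30 mpk and 90 mpk with all symbols included, and 9.90, 12.4, 10.2, 9.69 and 9.70 from sham to 90 mpk at 2000 counts. For Igkv at 2000 counts it was 27.2, 25.8 and 26.3 in sham, 10 mpk and 90 mpk. The ratio of Igkv to Igkc, added after seeing the data, had medians of 0.597, 0.546, 0.506, 0.387 and 0.4996 from sham to 90 mpk as counts, and of 0.782 in sham and 0.651 in 90 mpk at 2000 counts. Leaving out sham replicate 3 and 90 mpk replicate 6, also added after seeing the data, moved none of the 12 medians recomputed for those groups by more than 1 SD.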
